A study of Mus musculus with 15 samples.

Results

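Solute carriers were followed by the symbols of their probes on Illumina mouse BeadChips, an array on which each transcript is read by many copies of a bead-bound probe. A gene was taken as a member when its symbol began with Slc or Slco and a digit and when a probe had a detection p-value under 0.01 on at least 3 of the 15 arrays. The brightest such probe stood for the gene. Of 337 Slc symbols on the array, 138 passed and 199 did not. Slc2a1, Slc7a11, Slc3a2 and Slc7a5 were set aside by the rule, which left 134 members of the 8228 genes measured. For 4 members the symbol does not name a carrier. Slc9a3r1 and Slc9a3r2 encode scaffold proteins of sodium-proton exchangers, Slc4a1ap encodes an adaptor protein, and Slc7a6os is named for its place opposite to Slc7a6.

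The arrays came from 2 mouse mammary carcinoma lines that share a tumour of origin, 4T1, which metastasises widely, and 4TO7, which seldom forms overt metastases. The design asked what changes when Tm4sf1, a membrane protein of the L6 family, is lowered in 4T1 or introduced into 4TO7. The 4T1 cells carried the lentiviral pLKO vector with a scrambled hairpin, with shTM4SF1-1 (hairpin 1 here) or with shTM4SF1-5 (hairpin 5). The retroviral vector of the 4TO7 cells was pBabepuro, which was empty or expressed TM4SF1. There were 3 arrays per group in 5 groups, and the titles call them biological replicates. All the cells were stable transductants, and the sources used here do not say whether they were pools or single clones. They do not say either whether replicates came from separate cultures, so p-values measure the spread between these arrays, which may be technical.

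Solute carriers are membrane proteins that move amino acids, sugars, metals, nucleosides, vitamins, organic anions and other small molecules across the plasma membrane or into organelles. Many couple uphill transport to a sodium or proton gradient, others exchange one solute for another, and the Slc25 family serves the inner mitochondrial membrane. In carcinoma cells, amino acid and metal carriers are known for supplying growth and for responding to nutrient stress.

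The Tm4sf1 probe read 8.17, 8.01 and 8.03 on the log2 intensity scale in scramble arrays, 6.77, 6.96 and 7.09 with hairpin 1, and 7.07, 6.72 and 5.96 with hairpin 5. It fell by 1.13 and 1.49 (log2). In 4TO7 it read 8.68, 7.85 and 8.29 with empty vector and 8.53, 8.30 and 8.40 with TM4SF1, a difference of 0.14 (limma, adjusted p = 0.933), so the direction of that comparison rests on the labels. Mean intensity ranged from 222 to 419 (arbitrary units) per array, and 112 to 125 members were detected on each. A median of 38 beads stood behind a member's value on an array, with a bead standard error of 4.56% of the intensity. Krt8 and Krt18, keratins of luminal epithelium, were detected on every array, and Krt7 on 9 of 9 4T1 arrays and 0 of 6 4TO7 arrays. The probe of the epithelial cadherin Cdh1 was detected on 1 of 9 4T1 arrays and on 0 of 6 4TO7 arrays. Of the remaining epithelial markers among the 7 on the chip, Cldn4 was detected on 7 of 9 4T1 and 0 of 6 4TO7 arrays. Cldn7 and Krt19 were detected on none. No leukocyte, endothelial or adipocyte marker was detected on any array (0 of 4, 0 of 4 and 0 of 2 on the chip). Of 5 mesenchymal markers on the chip, Vim and Zeb2 were detected on every array, Twist1 on 9 of 9 4T1 and 0 of 6 4TO7 arrays, and Zeb1 and Cdh2 on none. Of 4 fibroblast markers, Pdgfra was detected on every array, Dcn on 8 of 9 4T1 and 6 of 6 4TO7 arrays, Pdgfrb on 6 of 9 and 0 of 6, and Col1a1 on none. In such bulk samples, fewer cells of a type and less RNA per cell cannot be told apart.

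Among the members, 96 were detected on all 15 arrays and 22 were undetected on every array of at least 1 group. Just inside the detection threshold lay 5 members detected on 3 arrays and 3 members detected on 4. The range of a member's 5 group means had a median of 0.58 (log2), from 0.13 to 4.69, and 18 members spanned 1 or more. The median standard deviation (SD) within a group was 0.14 for members and 0.13 for all genes measured. A member was called when its adjusted p was under 0.05 in a limma fit to all arrays, with Benjamini-Hochberg adjustment over the 8228 genes of each comparison. By that rule 77 members were called in at least 1 of 5 comparisons and 57 in none.

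With hairpin 1, 17 of the 134 members were called against scramble, or 12.7%, beside 5.83% of all genes measured. Of these members 15 rose and 2 fell (3.01% and 2.82% of all genes). With hairpin 5, 7 members were called, or 5.22%, beside 3.52% of all genes, and 5 rose and 2 fell (1.34% and 2.19% of all genes). The groups did not overlap for 28.4% of members with hairpin 1 (25.1% of all genes) and for 26.1% with hairpin 5 (20.8% of all genes). The median log2 change of the members was 0.05 with hairpin 1 and 0.01 with hairpin 5, where the medians of all genes were 0.00 and 0.01. Among the 96 members detected on all arrays, 14 were called with hairpin 1 (14.6%) and 7 with hairpin 5 (7.29%). For the 6450 genes detected on all arrays the shares were 6.39% and 3.89%. Scaling arrays by their medians in place of quantile normalization left 1 call with hairpin 1, that of Slc14a1, and 0 with hairpin 5, and the direction of the called members was kept, except for Slc39a6, for which this was not run.

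The hairpins share their scramble arrays, so calls made with both are a description and not independent evidence. In the same direction with both were 6 members, 5 higher and 1 lower (143 of all genes, 1.74%). They were the urea channel gene Slc14a1, the amino acid carriers Slc1a4 and Slc6a9, the zinc carrier Slc39a13, and the organic anion carriers Slco4a1 (higher) and Slco2a1 (lower). No member was called in opposite directions with the hairpins.

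Slc14a1 encodes the urea transporter UT-B, a facilitative channel known from red cells and the kidney. It read 6.05, 6.0 and 5.73 (log2 intensity) in scramble arrays, 7.04, 7.25 and 7.38 with hairpin 1, and 6.58, 6.43 and 6.51 with hairpin 5. These 3 groups were fully separated, with hairpin 1 highest and hairpin 5 between. The rise was 1.29 ± 0.13 (log2, SE, n = 3 arrays per group) with hairpin 1, or 2.45-fold (limma, adjusted p = 2.2e-07). With hairpin 5 it was 0.58 ± 0.13 (adjusted p = 0.00988). In 4TO7 the gene was brighter on every array, at 9.31, 9.27 and 9.21 with empty vector and 9.48, 9.39 and 9.02 with TM4SF1. The 4TO7 groups overlapped, and their difference was 0.03 ± 0.13 (adjusted p = 0.980). A pair of further Slc14a1 probes passed the detection rule. They rose with hairpin 1 by 0.60 and 1.05 (limma, adjusted p = 0.0225 and 0.002 over all probes). Their hairpin 5 differences, 0.35 and 0.22, did not pass (adjusted p = 0.296 and 0.691). The hairpin 5 call of the main probe was lost in 6 of 16 alternatives. These were no background correction, median scaling, only the arrays compared, omission of each dimmest array, and the omission of scramble replicate 3 or hairpin 5 replicate 1 (0.48 to 0.54 with either omission, adjusted p = 0.0516 to 0.0796).

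Slc1a4 encodes ASCT1, an exchanger of small neutral amino acids such as serine and alanine. Its scramble arrays read 7.74, 7.97 and 7.68, its hairpin 1 arrays 8.73, 8.38 and 8.56, and its hairpin 5 arrays 8.22, 8.34 and 8.30. Every array of either hairpin lay above every scramble array, and the ranges of the hairpins did not overlap. It rose by 0.76 ± 0.11 (1.69-fold, adjusted p = 6.4e-05) and by 0.49 ± 0.11 (adjusted p = 0.0105). The hairpin 5 call was lost in 4 of 16 alternatives, median scaling, omission of each dimmest array, and the omission of scramble replicate 1 or 3, at 0.43 to 0.46 (adjusted p = 0.0586 to 0.0779). The 4TO7 arrays read 8.20, 8.16 and 8.13 with vector and 8.01, 8.27 and 8.29 with TM4SF1, which overlapped. Slc6a9 encodes the glycine transporter GLYT1. It read 8.71, 8.81 and 8.60 with scramble, 9.08, 9.18 and 9.29 with hairpin 1, and 9.03, 8.97 and 9.08 with hairpin 5. Both hairpins lay above scramble on every array and touched each other at 9.08. The rises were 0.48 ± 0.09 (adjusted p = 0.00131) and 0.32 ± 0.09 (adjusted p = 0.0415). The hairpin 5 call of Slc6a9 was lost in 10 of 16 alternatives, among them each hairpin 5 array and scramble replicates 1 and 3 left out in turn, at 0.27 to 0.35 (adjusted p = 0.0661 to 0.215).

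Slc1a4 and Slc6a9 are known targets of ATF4, the transcription factor of the amino acid response. Of 6 amino acid carrier genes listed for that link, 4 were measured, and 3 of them rose with hairpin 1 and 2 with hairpin 5, where 3.01% and 1.34% of all genes rose. The median log2 change of those 4 was 0.56 with hairpin 1, beside 0.00 over all genes, and 0.22 with hairpin 5. The list was chosen with earlier results of these data known, so these values describe it and do not test the link. Slc7a3, which encodes the cationic amino acid transporter CAT3, is the third gene. It read 5.17, 5.23 and 5.17 with scramble (detected on 2 of the 3 arrays), 5.88, 5.68 and 5.96 with hairpin 1, and 5.60, 4.96 and 5.33 with hairpin 5. Hairpin 1 was above scramble on every array whereas hairpin 5 straddled it, and the log2 changes were 0.65 (adjusted p = 0.0304) and 0.11 (adjusted p = 0.842). The Slc7a3 call was lost in 9 of 16 alternatives, among them when any array of these 6 but hairpin 1 replicate 2 was left out, at 0.59 to 0.67 (adjusted p = 0.0707 to 0.132). The fourth, Slc38a2, the sodium-coupled neutral amino acid transporter SNAT2, differed by 0.07 and -0.12 and was not called. A further Slc38a2 probe differed by 0.18 and 0.24 and did not pass either (limma, adjusted p = 0.289 and 0.169 over all probes). Slc7a11, Slc7a5 and Slc3a2, amino acid carrier genes with the same known link, and the glucose carrier gene Slc2a1 were set aside by the rule, and they differed by 0.82 (called), -0.18, 0.27 and 0.28 (called) with hairpin 1 and by 0.14, -0.35 (called), 0.08 and 0.02 with hairpin 5. In vector 4TO7 against scramble 4T1, Slc7a11 stood at -1.07 and Slc7a5 at 0.47, and none of the 4 was called with TM4SF1. Over the class of amino acid and peptide carriers, 3 of 19 members rose with hairpin 1 (median 0.16) and 2 of 19 with hairpin 5 (median 0.01). That was 15.8% and 10.5%, beside 3.01% and 1.34% of all genes. None of the class fell, beside 2.82% and 2.19% of all genes.

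Promoters of members called with both hairpins are shown where the RefSeq window (GRCm38.p6, 250 bases before to 50 after the start site) held a searched motif. The motifs were TGATGNAA, the core of the amino acid response element that ATF4 binds, and ACGTG, the core of the hypoxia response element, on both strands. Capitals mark the matches, which do not overlap each other. In Slc1a4 the match TTGCATCA, the reverse complement of the first motif, begins at position -4 from the start site. In Slco2a1 the match TTTCATCA begins at position -48, and CACGT begins at position 11 of the transcript. In Slc39a13 the match ACGTG begins at position 11 of the transcript, and the windows of Slc6a9 and Slco4a1 held neither motif.
Slc1a4 (chr11:20332664-20332963, minus strand): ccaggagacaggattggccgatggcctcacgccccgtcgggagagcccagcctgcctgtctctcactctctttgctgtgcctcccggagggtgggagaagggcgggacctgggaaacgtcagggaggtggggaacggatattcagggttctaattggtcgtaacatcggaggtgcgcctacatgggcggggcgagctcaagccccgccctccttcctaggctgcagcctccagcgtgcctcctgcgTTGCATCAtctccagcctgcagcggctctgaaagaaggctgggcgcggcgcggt
Slc39a13 (chr2:91070266-91070565, minus strand): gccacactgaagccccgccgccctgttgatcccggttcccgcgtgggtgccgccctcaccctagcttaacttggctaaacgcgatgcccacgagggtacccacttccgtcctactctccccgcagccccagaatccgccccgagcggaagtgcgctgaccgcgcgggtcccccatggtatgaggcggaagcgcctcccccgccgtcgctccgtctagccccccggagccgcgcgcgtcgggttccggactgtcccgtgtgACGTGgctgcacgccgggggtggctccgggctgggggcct
Slco2a1 (chr9:103008237-103008536, plus strand): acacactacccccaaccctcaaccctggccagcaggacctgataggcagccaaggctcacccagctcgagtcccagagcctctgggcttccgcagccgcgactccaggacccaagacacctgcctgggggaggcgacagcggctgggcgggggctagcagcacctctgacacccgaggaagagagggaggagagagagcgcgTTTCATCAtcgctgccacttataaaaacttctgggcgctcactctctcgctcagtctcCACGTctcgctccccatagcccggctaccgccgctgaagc
The Slc1a4 transcript rose and the Slco2a1 transcript fell with both hairpins, so the first motif was present in a promoter of each direction. TGATGNAA occurred in 4 of the 109 members with a promoter (3.67%) and in 1219 of 27025 genes (4.51%), and in 1 of 12 members that rose with hairpin 1. ACGTG occurred in 38 of 109 members (34.86%) and in 5886 genes (21.78%), and in 4 of those 12. For 29 members over 1 promoter was searched. A match describes letters and not a bound site.

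Slco4a1 encodes OATP4A1, an organic anion transporter known to carry thyroid hormones. It read 9.83, 9.78 and 9.71 with scramble, 10.45, 10.34 and 10.29 with hairpin 1, and 10.30, 10.12 and 10.28 with hairpin 5. All hairpin arrays were above all scramble arrays, and the hairpins overlapped in a narrow range. The rises were 0.59 ± 0.09 (1.51-fold, adjusted p = 9.6e-05) and 0.47 ± 0.09 (1.38-fold, adjusted p = 0.00231). The hairpin 5 call was lost in 2 of 16 alternatives, median scaling and omission of each dimmest array. Slco2a1, the prostaglandin transporter, was the member lower with both. Its scramble arrays read 10.55, 10.65 and 10.68, its hairpin 1 arrays 10.08, 10.25 and 10.08, and its hairpin 5 arrays 10.10, 10.08 and 10.29. No hairpin array reached the scramble range, and the hairpins were interleaved. It fell by 0.49 ± 0.09 (adjusted p = 5.4e-04) and by 0.47 ± 0.09 (adjusted p = 0.00134). The calls of Slco2a1 with either hairpin were kept in 15 of 16 alternatives and lost with median scaling.

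**Figure D1:**
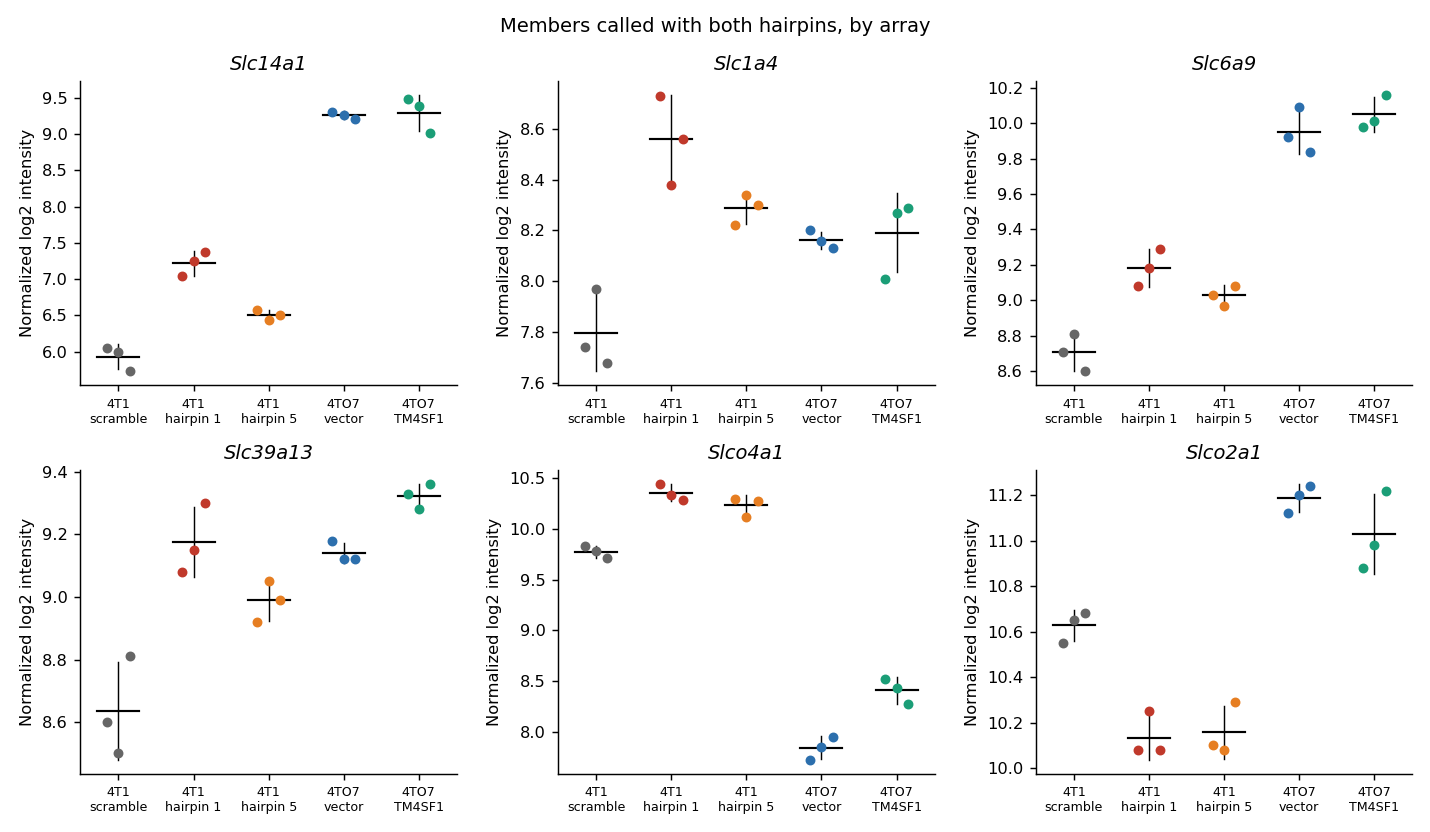
Normalized log2 intensity (vertical axes, each with its own range) of the 6 members called with both hairpins, with 1 point per array, a horizontal line at the mean and a vertical line of 1 SD for the 3 arrays of each group. Both hairpin groups lie above the scramble arrays in all but Slco2a1, where both lie below, and the 4TO7 groups stand highest for Slc14a1, Slc6a9 and Slco2a1 and lowest for Slco4a1.

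Metal carriers gave 4 of the 15 rises with hairpin 1, from 20 measured (median change of the class 0.07), and 1 rise with hairpin 5. That was 20% and 5% of the class, beside 3.01% and 1.34% of all genes. Slc39a13 encodes ZIP13, a zinc importer into the cytosol from the early secretory pathway. It read 8.60, 8.50 and 8.81 with scramble, 9.08, 9.15 and 9.30 with hairpin 1, and 8.92, 9.05 and 8.99 with hairpin 5. Both hairpins were above scramble on every array, by 0.54 ± 0.09 (adjusted p = 3.5e-04) and 0.35 ± 0.09 (adjusted p = 0.0258). A further Slc39a13 probe rose by 0.56 with hairpin 1 (limma, adjusted p = 0.0334 over all probes) and differed by 0.20 with hairpin 5 (adjusted p = 0.608). The hairpin 5 call of the main probe was lost in 6 of 16 alternatives, among them without scramble replicate 1 or 2 or hairpin 5 replicate 2 or 3, at 0.29 to 0.35 (adjusted p = 0.0519 to 0.144). Slc30a1 encodes ZnT1, the zinc exporter of the plasma membrane. Its probe was not detected in scramble arrays, at 4.71, 4.90 and 4.80, and was detected on every hairpin 1 array, at 5.60, 5.58 and 5.62. That places it at least 1.28-fold higher with hairpin 1 (means 5.60 against 4.80, adjusted p = 0.00832). The call was lost in 2 of 16 alternatives, median scaling and the omission of each group's dimmest array, with an adjusted p of up to 0.359. An "at least" fold here sets the brighter group's mean against a floor, which on each array is the lowest detected value, or the dim probe itself where that is higher. With hairpin 5 the probe was detected on 1 of 3 arrays, and its fitted difference of 0.31 was not called (adjusted p = 0.434). Slc31a2, which encodes the copper transporter CTR2, read 6.12, 5.75 and 6.12 with scramble, 6.75, 6.38 and 6.86 with hairpin 1, and 6.27, 6.0 and 5.80 with hairpin 5. It rose by 0.67 (adjusted p = 0.0201) with hairpin 1, where no array overlapped scramble, and differed by 0.03 with hairpin 5 (adjusted p = 0.966), where the arrays were interleaved. Its call was lost in 5 of 16 alternatives, among them without scramble replicate 2 or hairpin 1 replicate 1 or 3, at 0.55 to 0.63 (adjusted p = 0.0769 to 0.122). Slc39a6, the zinc importer ZIP6 (LIV-1), completed the class with a rise of 0.41 (adjusted p = 0.00702). That value lies outside the rule for naming genes, was not put through the alternatives, and is given because it is the remaining rise with hairpin 1.

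Vitamin and nucleoside carriers moved in both directions with hairpin 1, with 2 of 8 higher and 1 lower (37.5% called, beside 5.83% of all genes). With hairpin 5, 0 of 8 were called, beside 3.52% of all genes (2 at an unadjusted p under 0.05, which 15.7% of all genes reached). Slc19a2, the thiamine transporter THTR1, read 8.74, 8.93 and 8.57 with scramble, 9.18, 9.40 and 9.21 with hairpin 1, and 8.86, 9.0 and 8.70 with hairpin 5. Hairpin 1 stood above both other groups on every array, with a rise of 0.52 (adjusted p = 0.00196), and the hairpin 5 difference was 0.11 (adjusted p = 0.656). The call was lost in 2 of 16 alternatives, median scaling and omission of each dimmest array. The equilibrative nucleoside transporter genes went opposite ways. Slc29a1 (ENT1) read 9.91, 9.91 and 10.07 with scramble and 9.70, 9.69 and 9.56 with hairpin 1, a fall of 0.31 (adjusted p = 0.0422). Slc29a2 (ENT2) was undetected in scramble arrays and detected on 1 hairpin 1 array, at least 1.01-fold higher (means 5.25 against 4.63, adjusted p = 0.0443). The Slc29a2 call was lost in 14 of 15 alternatives and the Slc29a1 call in 9 of 16, both of them when any of the 6 arrays was left out (adjusted p = 0.0684 to 0.175 for Slc29a2 and 0.0682 to 0.218 for Slc29a1). Slc5a6 encodes the sodium-dependent multivitamin transporter, in a family otherwise known for sugars. It read 7.75, 7.70 and 7.47 with scramble and 8.10, 8.09 and 8.33 with hairpin 1. It rose by 0.53 (adjusted p = 0.00577), and its hairpin 5 difference was 0.25 (adjusted p = 0.292). The call was lost in 3 of 16 alternatives, median scaling, omission of each dimmest array, and without hairpin 1 replicate 3 (0.45, adjusted p = 0.0544).

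Of 26 mitochondrial carriers, 1 was called with hairpin 1 (3.85%, beside 5.83% of all genes). With hairpin 5, 0 were called, beside 3.52% of all genes (4 at an unadjusted p under 0.05, which 15.7% of all genes reached). Slc25a33, a pyrimidine nucleotide carrier of the inner membrane, read 7.65, 7.90 and 7.74 with scramble, 8.32, 8.19 and 8.28 with hairpin 1, and 7.73, 7.61 and 7.89 with hairpin 5. It rose by 0.50 with hairpin 1 (adjusted p = 0.0095), on arrays that lay clear of both other groups, and differed by -0.02 with hairpin 5. The call was lost in 3 of 16 alternatives, median scaling, omission of each dimmest array, and without scramble replicate 1 (0.45, adjusted p = 0.063). Slc27a1, a fatty acid transport protein, read 7.29, 7.22 and 7.39 with scramble and 7.79, 7.99 and 7.74 with hairpin 1, a rise of 0.54 (adjusted p = 0.0172). Its hairpin 5 difference was 0.29 (adjusted p = 0.295), and the call was lost in 5 of 16 alternatives, among them without scramble replicate 1 or 2 or hairpin 1 replicate 2, at 0.47 to 0.53 (adjusted p = 0.0613 to 0.1). Slc7a6os rose by 0.65 with hairpin 1 (adjusted p = 0.0303). Its call was lost in 8 of 16 alternatives, among them each scramble array and hairpin 1 replicates 2 and 3 left out in turn, at 0.53 to 0.70 (adjusted p = 0.0557 to 0.154).

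Nucleotide sugar and other carriers of the endoplasmic reticulum and Golgi gave 0 calls of 18 with either hairpin (2 at an unadjusted p under 0.05 with each). Of all genes, 5.83% were called with hairpin 1 and 3.52% with hairpin 5, and 18.4% and 15.7% had an unadjusted p under 0.05. By brightest probe, the largest difference in that class was 0.45 for Slc35e2 with hairpin 1 (adjusted p = 0.105). With hairpin 5 it was 0.36 for Slc35c2 (adjusted p = 0.119), whose further probes differed by -0.08 and -0.18. A further Slc35a1 probe differed by -0.58 with hairpin 5 (limma, adjusted p = 0.0699 over all probes). Among carriers of inorganic ions, 0 of 12 were called with hairpin 1 (1 at an unadjusted p under 0.05, which 18.4% of all genes reached). Slc20a1, the sodium-phosphate cotransporter PiT1, was called lower with hairpin 5. It read 7.04, 6.83 and 7.19 with scramble, 6.79, 6.71 and 6.91 with hairpin 1, and 6.41, 6.75 and 5.93 with hairpin 5. The hairpin 5 arrays were widely spread (SD 0.41) but all below scramble, and the fall was 0.66 ± 0.17 (adjusted p = 0.0246). Its call was lost in 8 of 16 alternatives, among them without scramble replicate 1 or 3 or hairpin 5 replicate 1 or 3, at -0.68 to -0.44 (adjusted p = 0.061 to 0.151).

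**Figure D2:**
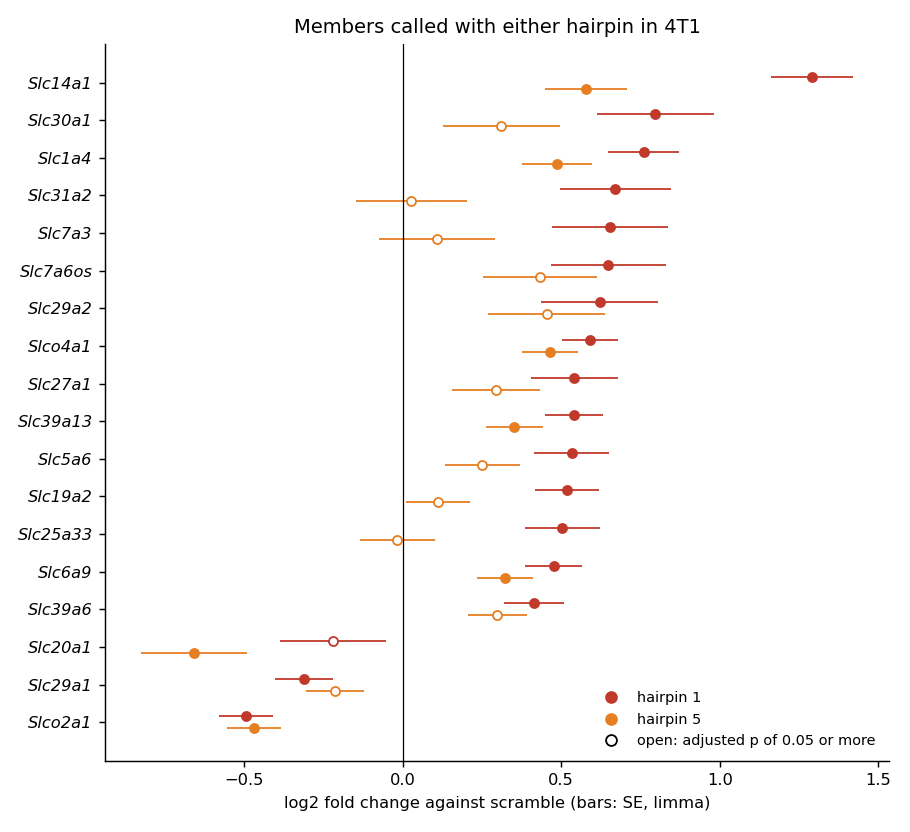
Log2 fold change against scramble (horizontal axis, bars of 1 SE from limma) for each of the members called with either hairpin, with hairpin 1 in red, hairpin 5 in orange and open points where the adjusted p was 0.05 or more. The points for hairpin 1 lie at or beyond those for hairpin 5 in size for all but Slc20a1, and Slc31a2, Slc7a3 and Slc25a33 show a hairpin 5 value near 0.

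A direct comparison of the hairpins called 3 members, or 2.24% beside 1.86% of all genes. All 3 were higher with hairpin 1 (1.25% of all genes, with 0.608% lower). Groups did not overlap for 25.4% of members, beside 17.1% of all genes. Slc14a1 was higher with hairpin 1 by 0.71 ± 0.13 (adjusted p = 0.00255), Slc25a33 by 0.52 ± 0.12 (adjusted p = 0.016) and Slc19a2 by 0.41 ± 0.10 (adjusted p = 0.0307). The further Slc14a1 probes were higher by 0.25, which did not pass, and by 0.83 (limma, adjusted p = 0.539 and 0.0283 over all probes). The Slc25a33 call was lost without replicate 1 or 3 of hairpin 1 or replicate 1 or 2 of hairpin 5 (0.46 to 0.51, adjusted p = 0.0621 to 0.0927). The Slc19a2 call was lost when any hairpin array but replicate 2 of hairpin 5 was left out (0.33 to 0.45, adjusted p = 0.0512 to 0.209). For the other members called with both hairpins the difference between them was not called. It was 0.27 ± 0.11 for Slc1a4 (adjusted p = 0.255), 0.19 ± 0.09 for Slc39a13, 0.15 ± 0.09 for Slc6a9, 0.13 ± 0.09 for Slco4a1 and -0.02 ± 0.09 for Slco2a1. Slc31a2 stood at 0.64 ± 0.18 (adjusted p = 0.0555). The Tm4sf1 probe overlapped between the hairpins, with a difference of 0.36 ± 0.19 (adjusted p = 0.441), and its part in these differences was not tested.

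In 4TO7 cells, TM4SF1 against empty vector gave 1 called member of 134, or 0.746%, beside 0.0243% of all genes (2 of 8228). At an unadjusted p under 0.05 there were 11 members and 594 genes (7.22%), and groups did not overlap for 14.2% of members and 12.7% of all genes. The called member was Slco4a1, which also rose with both hairpins in 4T1. It read 7.72, 7.85 and 7.95 with vector and 8.52, 8.43 and 8.27 with TM4SF1. The groups were fully separated, and the rise was 0.57 ± 0.09 (log2, SE, n = 3 per group), or 1.48-fold (limma, adjusted p = 0.00429). The call was lost in 4 of 16 alternatives. These were median scaling, only the arrays compared, and the omission of vector replicate 1 or of TM4SF1 replicate 1 (0.51 with either omission, adjusted p = 0.0672 to 0.0969). Over all alternatives the difference stayed between 0.36 and 0.69, and the adjusted p reached 0.952. None of the members called with both hairpins was called in the opposite direction here. The largest differences of their classes, not called, were 0.49 for Slc29a2, detected on 1 TM4SF1 array, 0.41 for the glucose carrier Slc2a6 (adjusted p = 0.578) and -0.39 for Slc20a1 (adjusted p = 0.615).

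The empty-vector 4TO7 and scramble 4T1 arrays differed for 70 of 134 members, or 52.2% beside 48.3% of all genes. In 4TO7, 46 were higher and 24 lower (25.6% and 22.8% of all genes). Groups did not overlap for 61.9% of members and 57% of all genes. The median difference of the members was 0.09 (log2), and that of all genes was 0.03. The detection rule admitted 8 members through 4T1 arrays alone and 4 through 4TO7 arrays alone. For these the rule itself favoured a difference between the lines, so their calls and p-values are a description. Among members detected on all 15 arrays, 52.1% were called, beside 50.8% of the genes detected on all arrays. Vector system and hairpin go with the line here, so their effects and that of the line cannot be told apart. Of the 134 members, 10 were called and differed by 1 or more (log2), as did 762 of the 8228 genes measured. Median scaling kept 34 calls, 22 higher and 12 lower.

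Slc15a3, which encodes the lysosomal peptide and histidine transporter PHT2, showed the widest gap between the lines. It read 4.76, 4.57 and 4.76 in scramble 4T1 arrays, where it was not detected, and 9.10, 9.32 and 9.32 in vector 4TO7. No 4T1 array of any group detected it and every 4TO7 array did, so it met the detection rule through 4TO7 alone. The TM4SF1 arrays read 9.15, 9.20 and 9.29. It was at least 16.1-fold higher in 4TO7 (means 9.25 against 4.70, adjusted p = 1.1e-19). Slc14a1 followed at 3.33 ± 0.13, or 10.1-fold (adjusted p = 8.4e-18), and its further probes gave 2.69 and 2.84. The gene that rose with both hairpins in 4T1 was far brighter still in 4TO7.

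The widest difference downwards was in Slco4a1, at 9.83, 9.78 and 9.71 in scramble 4T1 and 7.72, 7.85 and 7.95 in vector 4TO7. The lines did not approach each other on any array, and the difference was -1.93 ± 0.09 (3.81-fold lower, adjusted p = 4.1e-16). The remaining members called with both hairpins were higher in 4TO7, by 1.25 ± 0.09 for Slc6a9, 0.56 ± 0.09 for Slco2a1, 0.51 ± 0.09 for Slc39a13 and 0.36 ± 0.11 for Slc1a4. All were called (the highest adjusted p was 0.00818, for Slc1a4). The comparison of lines shares the scramble arrays with those of the hairpins.

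Metal carriers were called between the lines in 10 of 20 (50%, beside 48.3% of all genes), with 8 higher in 4TO7 and 2 lower. Slc39a4 encodes ZIP4, known for zinc uptake in the intestine. It read 6.54, 6.75 and 6.39 in scramble 4T1 and 8.22, 8.59 and 8.42 in vector 4TO7, a separation of 1.85 (3.61-fold, adjusted p = 2e-11). Slc11a2 encodes DMT1, the proton-coupled importer of ferrous iron. It read 5.47, 6.04 and 5.69 against 7.26, 7.42 and 7.41, higher by 1.63 (3.09-fold, adjusted p = 2e-08). Slc39a6 was higher by 0.92 (adjusted p = 5.1e-09). Going the other way, the heme transporter gene Slc48a1 averaged 10.11 ± 0.16 (SD, n = 3) in 4T1 and read 9.12, 9.07 and 9.16 in 4TO7, 1.99-fold lower (adjusted p = 6.5e-11). None of these 4 was called with TM4SF1, and of them only Slc39a6 was called with a hairpin.

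**Figure D3:**
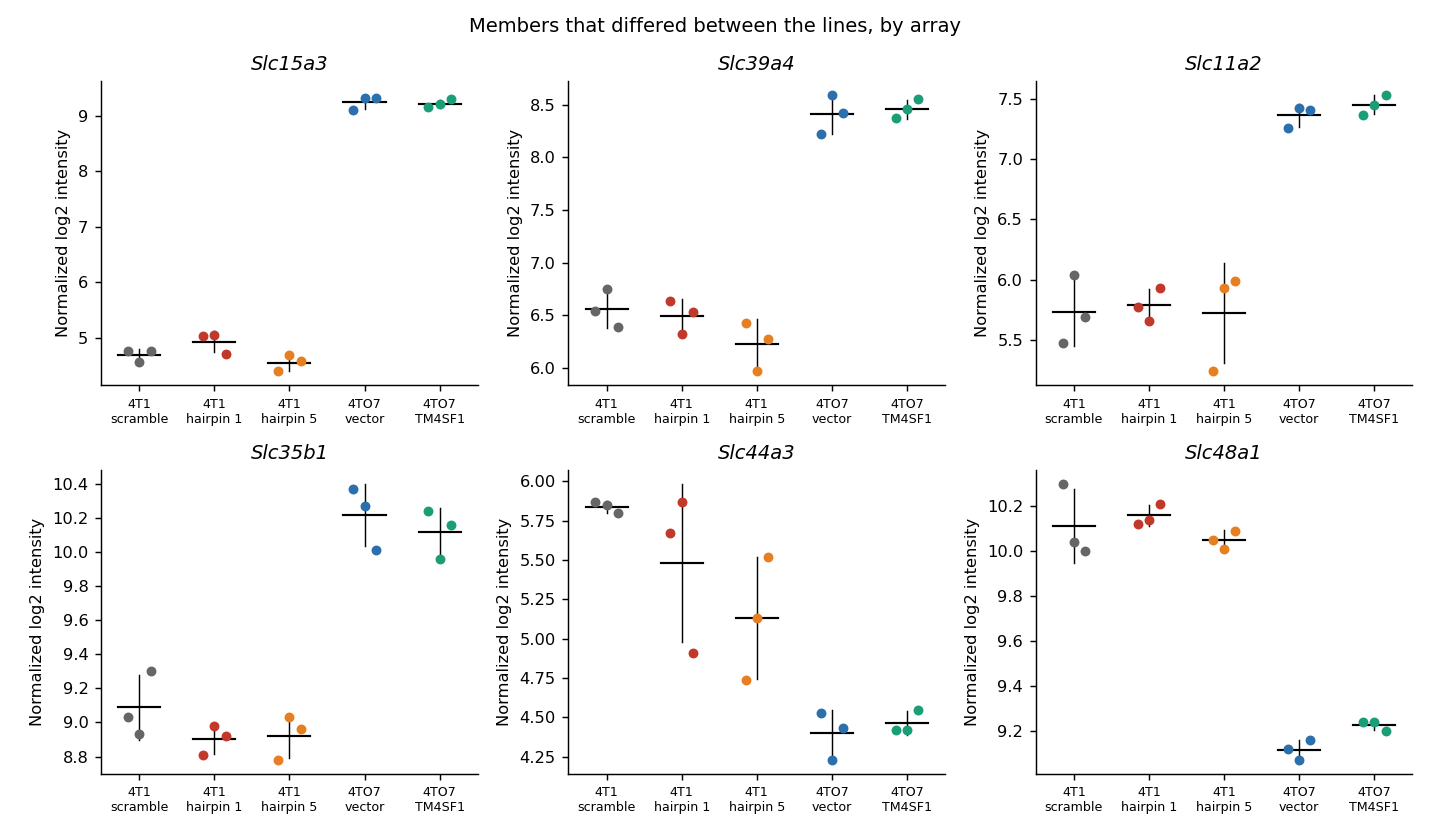
Normalized log2 intensity (vertical axes, each with its own range) of 6 members that differed between the lines, with 1 point per array, a horizontal line at the mean and a vertical line of 1 SD for the 3 arrays of each group. The 6 4TO7 arrays stand apart from the 9 4T1 arrays in each panel, and within a line the groups are close except for the spread of Slc44a3 with the hairpins.

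Carriers of nucleotide sugars and of the endoplasmic reticulum and Golgi were called in 12 of 18 (66.7%, beside 48.3% of all genes). In 4TO7, 10 were higher and 2 lower (median 0.31). Slc35b1, an ATP/ADP exchanger of the endoplasmic reticulum, read 9.03, 8.93 and 9.30 in 4T1 and 10.37, 10.27 and 10.01 in 4TO7, higher by 1.13 (2.19-fold, adjusted p = 9.1e-10). Slc35d1, a UDP-sugar carrier, was higher by 0.71 (adjusted p = 0.0024). Slc35f3 was undetected on all 4T1 arrays and at least 1.21-fold higher in 4TO7 (means 5.52 against 4.57, adjusted p = 4e-04). It met the detection rule through 4TO7 arrays alone.

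Amino acid and peptide carriers split, with 6 of 19 higher in 4TO7 and 5 lower (57.9% called, beside 48.3% of all genes, median -0.05). Slc6a9 and Slc15a3 were among the higher. Lower in 4TO7 were Slc7a7, the light chain y+LAT1 that exports cationic amino acids (log2 -0.79, adjusted p = 0.00787, or -0.55 and 0.081 without vector replicate 1), and Slc38a9, a lysosomal amino acid sensor. A further Slc7a7 probe, detected on 8 arrays, stood at -1.24 (limma, adjusted p = 2.6e-05 over all probes). The Slc38a9 probe was undetected on the vector arrays and at least 1.39-fold lower there (means 4.92 against 5.75, adjusted p = 0.00156). Slc7a4, a relative of the cationic amino acid transporters, was undetected on every 4TO7 array and at least 1.45-fold lower (means 4.91 against 5.81, adjusted p = 8.9e-05). Nucleoside and vitamin carriers were called in 4 of 8 (50%, beside 48.3% of all genes), all higher in 4TO7 (25.6% of all genes). They included the proton-coupled folate transporter Slc46a1 (0.90, adjusted p = 0.00163), the lysosomal Slc46a3 (0.72, adjusted p = 3.6e-04) and Slc19a2 (0.66, adjusted p = 4.6e-06).

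Mitochondrial carriers were called in 11 of 26 (42.3%, beside 48.3% of all genes), with 5 higher and 6 lower (median -0.03). Slc25a29, which carries basic amino acids, read 5.87, 5.88 and 6.03 in 4T1, was undetected on every 4TO7 array, and was at least 1.57-fold lower there (means 4.70 against 5.93, adjusted p = 5.8e-06). Slc25a32, a folate or flavin carrier (-0.56), and Slc25a25, an ATP-magnesium/phosphate carrier (-0.54), were lower too. The Slc25a25 call was lost without scramble replicate 3 or vector replicate 1 (adjusted p = 0.0631 to 0.0647). Carriers of inorganic ions were called in 6 of 12 (50%, beside 48.3% of all genes), with 5 higher and 1 lower. The anion exchanger AE2 gene, Slc4a2, was higher by 0.72 (1.65-fold, adjusted p = 5.8e-08), and the sodium-driven bicarbonate exchanger gene Slc4a8, undetected in scramble arrays, was at least 1.32-fold higher (means 5.65 against 4.70, adjusted p = 9.6e-04). A further Slc4a8 probe, detected on 4 arrays, stood at 0.53 and did not pass (limma, adjusted p = 0.0587 over all probes). Slc8b1, the mitochondrial sodium-calcium exchanger NCLX, read 9.05, 9.02 and 8.97 in 4T1 and 8.18, 8.16 and 7.79 in 4TO7, lower by 1.96-fold (adjusted p = 1.6e-08).

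Carriers of organic ions, lipids and urea split evenly, with 4 of 18 higher in 4TO7 and 4 lower (44.4% called, beside 48.3% of all genes). Slc44a3, a choline transporter-like gene, read 5.87, 5.85 and 5.80 in scramble 4T1 and was undetected on all 4TO7 arrays, at least 1.47-fold lower (means 4.40 against 5.84, adjusted p = 7.4e-06). In the hairpin groups it was detected on 2 of 3 and 1 of 3 arrays, so it met the detection rule through 4T1 alone. Slc27a3, an acyl-CoA synthetase of the fatty acid transport family, was lower by 1.91-fold (adjusted p = 5.4e-05), and the orphan Slc22a23 was higher by 0.80 (adjusted p = 1e-06). Slc22a21, a carnitine transporter of the mouse, was detected on 2 of 3 scramble arrays and on none in 4TO7, at least 1.04-fold lower (means 4.71 against 5.34, adjusted p = 0.0134), a call lost without scramble replicate 2 or vector replicate 3 (adjusted p = 0.0523 to 0.0666). Among sugar and carboxylate carriers, 2 of 9 were higher and 2 lower (44.4% called, beside 48.3% of all genes). Slc45a3 was higher by 0.80, and the urate transporter gene Slc2a9 and the intracellular glucose carrier gene Slc2a8 differed by -0.74 and -0.62. Without scramble replicate 3 the Slc45a3 call was lost (0.47, adjusted p = 0.0725), as was that of Slc2a8 without it or vector replicate 3 (adjusted p = 0.0716 to 0.151). Of the genes that are not carriers, Slc9a3r2, which encodes the scaffold NHERF2, was at -1.14 (2.2-fold lower, adjusted p = 4.1e-07), and Slc4a1ap and Slc7a6os were higher by 0.61 and 0.78.

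**Figure D4:**
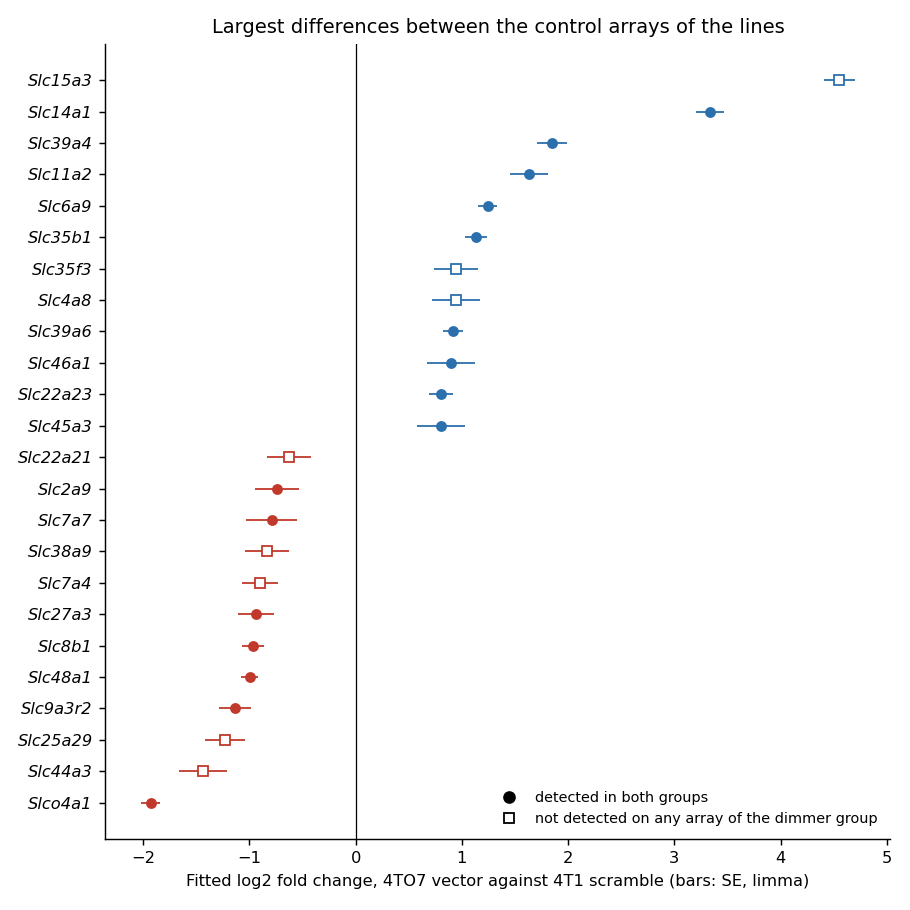
Fitted log2 fold change of vector 4TO7 against scramble 4T1 (horizontal axis, bars of 1 SE from limma) for the 12 members furthest in each direction among those called whose groups did not overlap. Open squares mark probes detected on no array of the dimmer group, whose fitted values are not bounds, and the points run from -1.93 for Slco4a1 to 4.55 for Slc15a3.

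**Figure D5:**
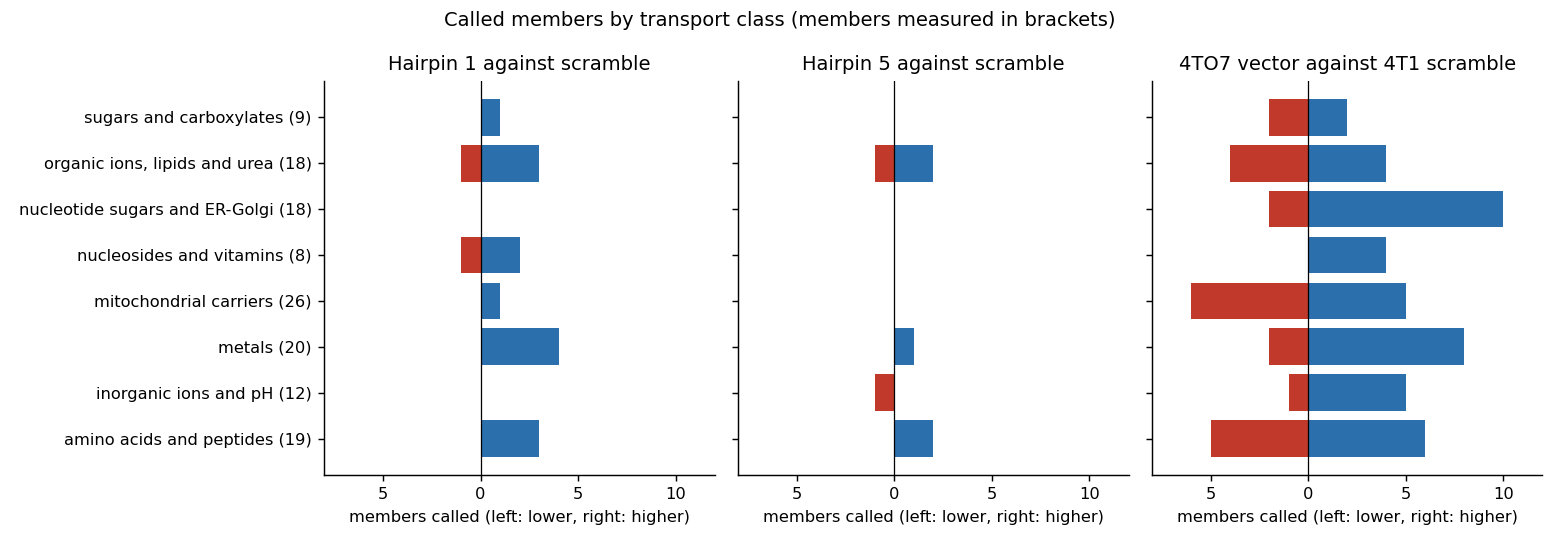
Number of called members in each of 8 transport classes for hairpin 1, hairpin 5 and the lines (bars to the left lower, to the right higher, members measured in brackets). The class of nucleotide sugar and endoplasmic reticulum to Golgi carriers has no bar with either hairpin and the longest bar to the right between the lines, 10 members.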

How the data were processed

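Per the file headers, the authors deposited the mean bead intensity of 25697 probes per array as a linear value before any normalization or background subtraction, with a bead standard error (a signal column), a bead count and a detection p-value. The submitters' processing notes name GenomeStudio, with no version. The authors' deposited value table, judged from its values to be background-subtracted and quantile-normalized intensity, served as an alternative. The sources used here do not say how it was made. Columns were assigned by name. Of them, 0 lacked a sample.

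Background was corrected by limma's normexp method, with negative controls inferred from detection p-values and an offset of 16. Quantile normalization and log2 transformation followed. Probes detected on at least 3 arrays were kept (11109, of which 173 were Slc probes), and the brightest per symbol was used, giving 7576 named and 652 unnamed genes. Symbols came from the platform annotation, and 134 members matched RefSeq by gene ID with 0 changed symbols. The limma package (3.58.1, in R 4.3.3) fitted 1 mean per group over the 15 arrays (10 residual degrees of freedom, variance trend). All p-values are two-sided and adjusted by Benjamini-Hochberg within a comparison. The script was tested on simulated data. The number of arrays limits the precision, and the median standard error of a member's log2 change was 0.15. Apart from the choice of the brightest probe and the floor of the "at least" folds, no probe's level was set against another probe's.

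Genes were named by rule. It took the called members with the largest changes whose groups did not overlap, up to 10 each way per hairpin and for TM4SF1, 8 between the hairpins and 12 for the lines. It added every member called with both hairpins, up to 3 called per transport class (otherwise the largest change), and up to 4 called from each list of related genes. The members, classes and lists were chosen with earlier results of these data known. Alternatives were an offset of 50, intensities without background correction, the authors' table, cyclic loess, median scaling, 2 other detection filters, only the arrays compared, the replicate number as a block, leaving out each group's dimmest array, and each array left out in turn.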

Additional observations from a re-analysis of the deposited data

Results flagged for a closer look

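The test of the difference between the hairpins singled out 3 members, since an effect against the same scramble arrays was larger with hairpin 1 than with hairpin 5. Slc14a1, the urea transporter gene, was higher with hairpin 1 by 0.71 on the log2 scale, a call kept in 15 of 16 alternatives and lost with median scaling. Its further probes were higher by 0.25, which did not pass, and by 0.83 (limma, adjusted p = 0.539 and 0.0283 over all probes). Slc25a33, a mitochondrial nucleotide carrier gene, was higher by 0.52, a call lost in 6 alternatives. Slc19a2, the thiamine transporter gene, was higher by 0.41, a call lost in 9 alternatives, among them each hairpin 1 array left out in turn.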

How the results depend on the processing

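Of 63 called changes of named members, 27 kept their call and direction in every alternative run and 0 reversed. Those kept were calls between the lines, except for that of Slc14a1 with hairpin 1. Each other named call with a hairpin, between the hairpins or with TM4SF1 was lost in at least 1 alternative. The cause of the shifts that follow was not tested. With median scaling, which moved the median of all genes by -0.12 (hairpin 1), -0.18 (TM4SF1) and 0.11 (lines) on the log2 scale, the members called were 1 with hairpin 1, 0 with hairpin 5, 0 between the hairpins, 0 with TM4SF1, 34 between the lines and 0 with both hairpins. With only the arrays compared they were 3 with hairpin 5, 0 with TM4SF1 and 3 with both hairpins. Without the dimmest array of each group they were 8, 2 and 2 with hairpin 1, hairpin 5 and both. Leaving out each array in turn gave 11 to 13 with hairpin 1, 3 to 8 with hairpin 5, 3 to 6 with both, 1 to 3 between the hairpins, 0 to 1 with TM4SF1 and 59 to 61 between the lines. The arrays that moved a count by over 1.5 times were scramble replicate 1 (11 with hairpin 1, 3 with hairpin 5, 3 with both), scramble replicate 3 (3 and 3 with hairpin 5 and both), hairpin 1 replicate 3 (11 with hairpin 1, 1 between the hairpins), hairpin 1 replicate 1 (1 between the hairpins), hairpin 5 replicate 1 (4 with hairpin 5), and vector replicate 1 and TM4SF1 replicate 1 (0 with TM4SF1 each). Uncalled changes that reversed with TM4SF1 were -0.15 for Slc14a1, -0.17 for Slc1a4, -0.0851 for Slc6a9 and -0.0418 for Slc9a3r2 with median scaling, and -0.0347 for Slc1a4 and -0.0111 for Slc6a9 without the dimmest arrays. With each array left out in turn, uncalled differences spanned 0 for Slc14a1 (-0.0609 to 0.173) and Slc1a4 (-0.0198 to 0.118) with TM4SF1 and for Slco2a1 (-0.0799 to 0.0435) between the hairpins. The replicate block gave 17, 6, 4, 1, 70 and 5 calls in the order of hairpin 1, hairpin 5, between hairpins, TM4SF1, lines and both. Deviations from group means correlated from -0.15 to 0.06 between same-numbered arrays and from -0.13 to 0.17 between differently numbered ones. No pairing by number was seen, though with means of 3 arrays this cannot show that none existed. The slide as a block was not run because the headers give no slide. Dim probes limit 22 members, undetected throughout at least 1 group.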

Other observations

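Members of the solute carrier superfamily whose symbols do not begin with Slc were measured for 16 of 42 listed genes. With hairpin 1 only Ank, a gene of pyrophosphate and citrate export, was called, at -0.47 on the log2 scale (limma, adjusted p = 8.9e-05). It was also lower with hairpin 1 than with hairpin 5 by 1.24-fold (adjusted p = 0.0144). With hairpin 5 only Mtch1, a mitochondrial carrier homologue of the outer membrane, was called, at -0.26 (adjusted p = 0.0234). A single call of 16 is 6.25%, beside 5.83% of all genes with hairpin 1 and 3.52% with hairpin 5. None of the 16 was called with TM4SF1 by limma, and 0 had an unadjusted p under 0.05 (0.0243% and 7.22% of all genes). Between the lines 9 of 16 were called, 4 higher in 4TO7 and 5 lower (56.2%, beside 48.3% of all genes). Mfsd2a, a transporter of lysophospholipids, was higher by 1.89 and the magnesium carrier gene Nipa1 by 1.25, and its relative Nipal2 stood at -1.16.

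Partner proteins and pumps that set the gradients for solute carriers were measured for 6 of 13 listed genes. By limma 0 of 6 were called with hairpin 1, hairpin 5 or TM4SF1 (5.83%, 3.52% and 0.0243% of all genes). At an unadjusted p under 0.05 there were 2, 4 and 1 of 6, beside 18.4%, 15.7% and 7.22% of all genes. Between the lines the carbonic anhydrase genes of the cell surface went opposite ways. Car9 was higher in 4TO7 by 2.50 (adjusted p = 2.8e-09) and Car12 stood at -1.41 (adjusted p = 3.9e-07). The sodium pump subunit gene Atp1b1 stood at -1.09 and Atp1b3 was higher by 0.25.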
